A study of Homo sapiens with 9 samples.

Results

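The genes described here encode the constitutive subunits of the proteasome and its activators, taken by symbol as PSMA1 to PSMA7, PSMB1 to PSMB7, PSMC1 to PSMC6, PSMD1 to PSMD14 and PSME1 to PSME4. Of these 38 genes, 34 had a probe named for them, and all 34 were detected on every one of 8 arrays, among 12239 genes measured in the series. PSMA7, PSMC5, PSMD7 and PSMD13 were not analysed here. Each gene was represented by the brightest of its probes.

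RNA came from MDA-MB-231 cells, an established line from an estrogen receptor-negative breast adenocarcinoma, and was hybridised to Illumina expression arrays. In 3 isoform knockdown samples (MTDH_isoform_KD) the cells had received 200 pmol of an siRNA against an isoform of MTDH for 24 h. In 3 WT knockdown samples (MTDH_WT_KD) they had received the same amount of an siRNA against the wild-type form for the same time, and 2 control samples are used here because the third control array holds the mean of the other two. MTDH encodes metadherin, a membrane-associated protein linked to metastasis, and the study compared both knockdowns with untreated cells. Because the controls are described as untreated, transfection itself, separate handling and lower MTDH cannot be told apart in comparisons with control. The labels leave unsaid whether a group's samples were separate cultures, and p-values cover only the scatter among these samples, which may be of technical origin.

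The proteasome degrades proteins that carry ubiquitin chains. Its barrel-shaped 20S core is built from rings of alpha and beta subunits, and a few of the beta subunits hold the proteolytic sites. The 19S regulatory particle caps the core: its base holds a ring of ATPases that unfold substrates and its lid removes ubiquitin. Other caps, the PA28 and PA200 activators, open the core without ubiquitin recognition. Tumour cells with a high load of misfolded protein are known for their dependence on this machinery, and transcription factor NFE2L1 is known to raise subunit genes together when proteasome activity falls.

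The MTDH probe served as a check of the knockdown labels against control. Its normalized log2 levels were 9.87, 9.75 and 9.68 on the isoform knockdown arrays and 9.59, 9.79 and 9.90 on the WT knockdown arrays. The control arrays were at 10.71 and 10.69, so that every knockdown array lay below both controls. Isoform and WT knockdown arrays overlapped at this probe, so it cannot check which siRNA an array belongs to. Between 20295 and 21761 probes were detected per array, and precision is limited by how many arrays there are. Of the markers of this line, VIM, CD44, KRT18, KRT8 and EGFR were detected on every array. Of 5 genes listed as low or absent in it, ESR1, PGR and CDH1 were detected on no array, but ERBB2 (levels of 8.71 to 8.88) and EPCAM (7.79 to 8.54) on all 8. Of the leukocyte markers CD3D was detected on no array, PTPRC on 1 and CD14 and CD68 on all 8. Of the fibroblast markers COL3A1 was detected on no array, COL1A2 on 1, DCN on 5, COL1A1 on 7 and PDGFRB on all 8. Of the endothelial markers CDH5, VWF, KDR and TEK were detected on no array and PECAM1 on 1. The summed signal of the 4 leukocyte markers with a probe, set mainly by CD14 and CD68, was 1344 to 1392 in the isoform knockdown, 1037 to 1170 in the WT knockdown and 1338 to 1387 in control. For the 5 fibroblast markers the sum was 243 to 259 in the isoform knockdown, 183 to 208 in the WT knockdown and 258 to 283 in control. The part of these markers in the results below was not tested.

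In the isoform knockdown against control, 5 proteasome genes were higher, 5 were lower and 24 did not pass the test (limma, Benjamini-Hochberg adjusted p under 0.05). PSMD3, PSMC4, PSME2, PSMD4 and PSME1 rose, by 0.32 to 0.96 on the log2 scale. PSMD9, PSMD14, PSMD2, PSME3 and PSMD6 fell, with differences of -0.40 to -0.27. The members thus passed at 14.7% in each direction, whereas 19.9% of all genes were higher and 24.1% were lower, and among the 890 genes above a level of 11, 25.4% were higher and 22.0% lower. The members' shares lay below these. The median difference was -0.04 over the 34 members and -0.03 over all genes. The 5 lower calls depended on single arrays: 0 remained past the threshold without control replicate 3, 2 without control replicate 1 and 3 without isoform replicate 1 or isoform replicate 2. Over all probes, the fit with control replicate 3 left out passed 5897 in place of 9001. With arrays scaled to the median of all probes, 1 member was higher (PSMD3) and 8 were lower. The rises of PSMC4, PSME2, PSMD4 and PSME1 did not pass under that scaling.

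In the WT knockdown against control, 14 proteasome genes were higher, 3 were lower and 17 did not pass. The rises lay mostly in the 19S particle, with PSMD3, PSMD8, PSMD4 and PSMC6 ahead at 1.06, 0.78, 0.69 and 0.51. PSME3, PSMD5 and PSMD14 fell, at -0.83, -0.71 and -0.27. Of the members, 41.2% were higher and 8.82% lower, beside 26.6% higher and 29.7% lower over all genes. Among the genes above a level of 11, near the members' median of 11.49, 28.5% were higher and 26.2% lower. The median difference was 0.11 over the members and -0.02 over all genes. These counts rest on quantile normalization. When arrays were scaled to the median of all probes instead, 2 members were higher (PSMD3 and PSMD8) and 6 were lower. Every other rise among the 14 lost its call there. Among those lost were PSMB4, PSMC1, PSMC2, PSMC4, PSMC6, PSMD2, PSMD4, PSMD12, PSME1 and PSME2. That scaling moved the median of all kept probes to -0.19. Relative to the median of all kept probes, the members' median was 0.12 under quantile normalization. It was -0.03 under that scaling and also -0.03 under scaling to the median of the probes detected on every array. The members' own medians were 0.11 under quantile normalization, -0.23 under scaling to all probes and 0.08 under scaling to detected probes. For the genes above a level of 11 the medians were -0.002, -0.33 and -0.03 in that order. The members' median thus lay above that of these bright genes under each scaling.

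In the isoform knockdown against the WT knockdown, 12 proteasome genes were lower, 2 were higher and 20 did not pass. PSMD2, PSMD8 and PSMD1 fell furthest, at -0.70, -0.69 and -0.54, and PSME3 and PSMD5 rose, by 0.51 and 0.43. Of the members, 35.3% were lower and 5.88% higher. Among all genes 18.8% were lower and 19% higher, and among genes above a level of 11 the shares were 15.7% and 15.4%. The sign was negative for 26 of 34 members, with a median of -0.16 beside 0.01 over all genes. Relative to the median of all kept probes the members' median was -0.19 under quantile normalization and -0.11 under either median scaling. The members' own medians were -0.16 under quantile normalization, -0.04 under scaling to all probes and -0.10 under scaling to detected probes. For the genes above a level of 11 they were -0.007, 0.12 and 0.05 in that order. The number of lower calls was 7 without isoform replicate 3 and 3 (PSMD2, PSMD8 and PSMD1) when arrays were scaled to the median of all probes.

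**Figure D1:**
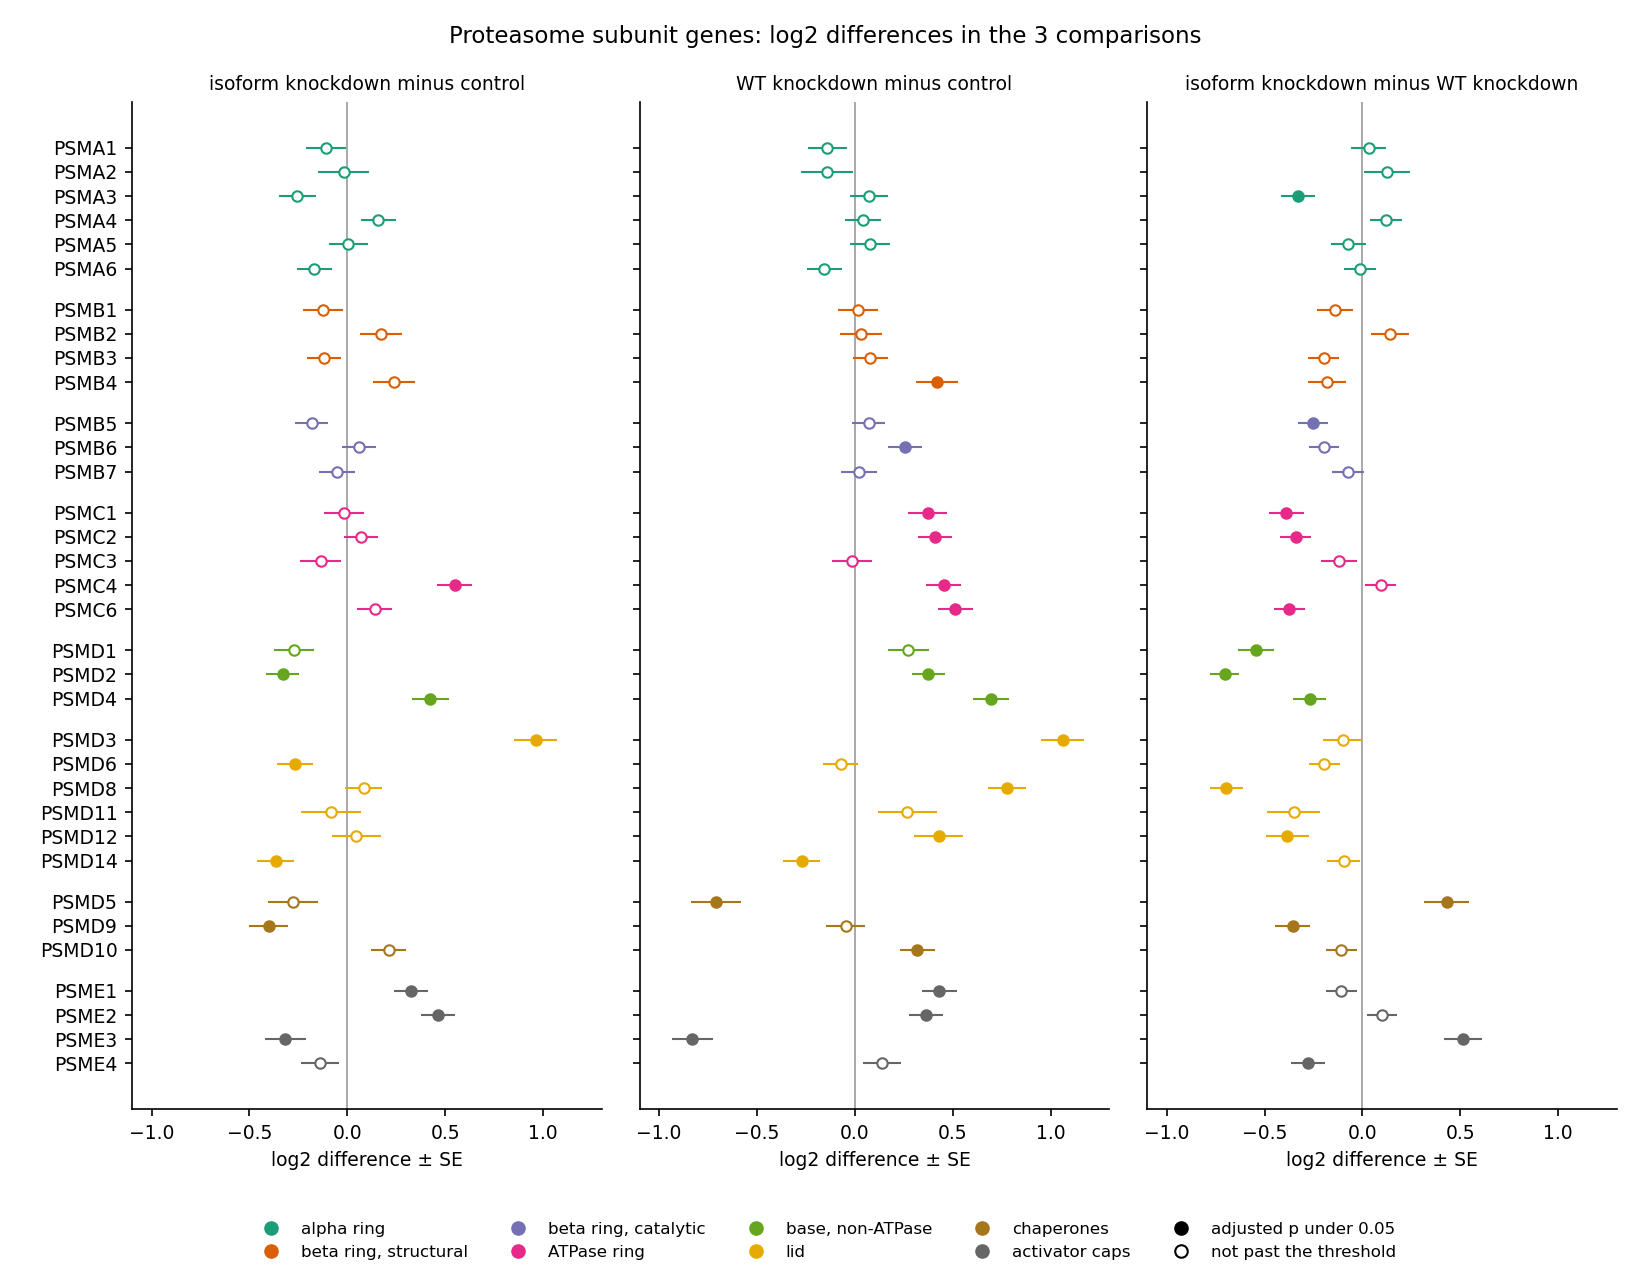
Log2 differences ± SE of the 34 proteasome genes, by role, in the isoform knockdown against control (left), the WT knockdown against control (middle) and the isoform knockdown against the WT knockdown (right), after quantile normalization; filled points passed the test. In the middle panel 14 genes are filled to the right of 0 and 3 to the left, in the left panel 5 and 5, and in the right panel 2 and 12.

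Both comparisons with control use the same control arrays, so their values are given side by side and no likeness between them is counted as a result. The comparison of the knockdowns likewise shares its arrays with these comparisons. A gene high on the WT arrays leans toward lower in the isoform against the WT knockdown. PSMD4, PSMC4, PSMD3, PSME1 and PSME2 were called higher in both, and PSME3 and PSMD14 lower in both. PSMD2 was called lower in the isoform knockdown and higher in the WT knockdown. No call was made in any of the 3 comparisons for 11 members, which were PSMA1, PSMA2, PSMA4, PSMA5, PSMA6, PSMB1, PSMB2, PSMB3, PSMB7, PSMC3 and PSMD11. Differences of at least 0.5 in size occurred at 5.88% of members in the isoform knockdown against control, 17.6% in the WT knockdown against control and 11.8% in the isoform against the WT knockdown. Over all genes the shares were 25.9% in the isoform knockdown against control, 38.6% in the WT knockdown against control and 18.2% between the knockdowns. The members were brighter, with a median level of 11.49 beside 7.50 for all genes. This share was not taken over genes above a level of 11, so the part of brightness was not tested.

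The 20S core showed few calls. Among its 13 measured genes, 0 passed in the isoform knockdown against control (limma; 1, PSMA3, had an unadjusted p under 0.05), 2 were higher in the WT knockdown and 2 were lower in the isoform than in the WT knockdown. The median was -0.05 in the isoform knockdown against control, 0.04 in the WT knockdown against control and -0.07 between the knockdowns, and no core gene differed by more than 0.42 in any comparison. Called genes made 0%, 15.4% and 15.4% of the core in that order, beside 44.0%, 56.3% and 37.8% of all genes. The alpha ring, whose subunits form the gate of the barrel, gave 0 calls against control at the brightest probes (limma; at an unadjusted p under 0.05, 1 in the isoform and 0 in the WT knockdown): its 6 genes lay between -0.26 and 0.16 in the isoform knockdown and between -0.16 and 0.08 in the WT knockdown, with a median SE of 0.10. PSMA3 alone of the ring was lower in the isoform than in the WT knockdown, at -0.33 ± 0.09 (adjusted p = 0.017, limma), a call lost without WT replicate 2 or isoform replicate 1 or 3. Its other kept probe gave -0.36 and passed. In the isoform knockdown against control PSMA3 fell short at -0.26 (adjusted p = 0.0614, limma). Arrays left out apart, that difference passed in 7 alternative settings and not in 4. A dimmer probe of PSMA1 also passed, at -0.31 in the WT knockdown against control and 0.32 in the isoform against the WT knockdown.

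The 3 catalytic subunits of the beta ring differed by at most 0.26 in size in any comparison. PSMB5 carries the chymotrypsin-like site, which is the main target of the drug bortezomib. Its levels were 11.30, 11.32 and 11.33 in the isoform knockdown, 11.57, 11.57 and 11.57 in the WT knockdown and 11.45 and 11.55 in control. The 3 groups did not overlap, with the isoform arrays lowest and the WT arrays highest. Between the isoform and the WT knockdown the difference was -0.25 ± 0.07 (adjusted p = 0.0279, limma), and the call was lost when any 1 of the 6 knockdown arrays was left out. PSMB6, the caspase-like subunit, was at 12.69, 12.58 and 12.67 in the isoform knockdown, 12.79, 12.85 and 12.89 in the WT knockdown and 12.61 and 12.56 in control. The WT arrays stood above the others, and isoform and control arrays overlapped. PSMB6 rose by 0.26 ± 0.09 in the WT knockdown (adjusted p = 0.0333, limma), but differed by -0.086 when arrays were scaled to the median of all probes. The call was also lost without either control or without WT replicate 2 or 3. PSMB7, the trypsin-like subunit, was at 12.21, 12.17 and 12.16 in the isoform knockdown, 12.31, 12.29 and 12.16 in the WT knockdown and 12.17 and 12.30 in control, and these ranges overlapped throughout. It differed by -0.05 in the isoform knockdown, 0.02 in the WT knockdown and -0.07 between them, with an SE of 0.08 to 0.09, and none passed.

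Among the 4 structural beta subunits, PSMB4 was the one with a call. Its levels were 11.67, 11.44 and 11.61 in the isoform knockdown, 11.75, 11.86 and 11.65 in the WT knockdown and 11.27 and 11.39 in control. Both controls lay below every knockdown array. PSMB4 rose by 0.42 ± 0.11 in the WT knockdown, or 1.34-fold (adjusted p = 0.00899, limma), a call that was lost without control replicate 1. In the isoform knockdown the difference of 0.24 ± 0.11 did not pass (adjusted p = 0.106, limma).

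The 19S particle carried most of the calls. Among its 14 measured genes, assembly chaperones apart, 3 were higher and 3 lower in the isoform knockdown against control, 9 were higher and 1 lower in the WT knockdown against control, and 8 were lower with 0 higher in the isoform against the WT knockdown. The median was 0.01 in the isoform knockdown against control, 0.39 in the WT knockdown against control and -0.35 between the knockdowns. In the isoform knockdown 21.4% of the 14 passed in each direction, near the 19.9% higher and 24.1% lower of all genes. In the WT knockdown 64.3% were higher and 7.14% lower, beside 26.6% and 29.7% of all genes. Between the knockdowns 57.1% were lower, beside 18.8% of all genes. In the base, 4 of 5 ATPases were higher in the WT knockdown, and 1 of them was higher in the isoform knockdown.

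PSMC4 was the ATPase called in both knockdowns. Its levels were 11.05, 10.97 and 11.13 in the isoform knockdown, 10.98, 10.93 and 10.96 in the WT knockdown and 10.53 and 10.47 in control, with both knockdowns above control and overlapping each other. It rose by 0.55 ± 0.09 in the isoform knockdown, or 1.46-fold (adjusted p = 0.00131, limma), and by 0.45 ± 0.09 in the WT knockdown, or 1.37-fold (adjusted p = 0.00213, limma). Both other kept probes of PSMC4 rose too, by 0.97 and 0.58 in the isoform knockdown and by 0.92 and 0.46 in the WT knockdown. Under scaling to the median of all probes, the brightest probe differed by 0.29 in the isoform knockdown and 0.09 in the WT knockdown, and neither passed.

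PSMC6, another ring ATPase, was at 11.18, 11.06 and 11.09 in the isoform knockdown, 11.56, 11.44 and 11.44 in the WT knockdown and 10.97 and 10.96 in control. The groups did not overlap, and the isoform arrays lay nearer to control. PSMC6 rose by 0.51 ± 0.09 in the WT knockdown (adjusted p = 0.00115, limma) and was lower in the isoform than in the WT knockdown, at -0.37 ± 0.08 (adjusted p = 0.00666, limma). A dim second probe of PSMC6, at a level of 5.65, differed by -0.42 in the WT knockdown and did not pass. PSMC2, a further ATPase of the ring, was at 12.02, 11.95 and 11.95 in the isoform knockdown, 12.24, 12.36 and 12.33 in the WT knockdown and 11.90 and 11.90 in control. It followed the same order, with a rise of 0.41 ± 0.09 in the WT knockdown (adjusted p = 0.00326, limma) and a difference of -0.34 ± 0.08 between the knockdowns (adjusted p = 0.00858, limma). PSMC1 differed by 0.37 in the WT knockdown against control and -0.39 between the knockdowns, and both passed. Its other kept probe, of similar brightness, gave -0.10 in the WT knockdown and -0.22 between the knockdowns, and neither passed, whereas in the isoform knockdown it passed at -0.32, where the brightest probe gave -0.02. The call in the WT knockdown was lost without control replicate 1. For PSMC3 the differences were between -0.14 and -0.01, and none passed.

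Of the non-ATPase subunits of the base, PSMD4 is a receptor that binds ubiquitin chains. Its levels were 11.36, 11.34 and 11.34 in the isoform knockdown, 11.56, 11.73 and 11.56 in the WT knockdown and 10.87 and 10.97 in control, so that the 3 groups stood apart with control lowest. PSMD4 rose by 0.42 ± 0.09 in the isoform knockdown (adjusted p = 0.00609, limma) and by 0.69 ± 0.09 in the WT knockdown, or 1.62-fold (adjusted p = 0.00024, limma). All 3 of its probes passed in both comparisons under quantile normalization. Under scaling to the median of all probes the brightest probe passed as higher in neither. The difference of -0.27 ± 0.08 between the knockdowns passed at the brightest probe (adjusted p = 0.0333, limma), but not at the other two, which gave -0.07 and -0.12. At the brightest probe it was lost without WT replicate 2 or any isoform replicate, and the rise in the isoform knockdown without control replicate 1.

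PSMD2 is a scaffold of the base at which shuttle factors dock. Its levels were 11.27, 11.32 and 11.23 in the isoform knockdown, 11.96, 12.01 and 11.96 in the WT knockdown and 11.61 and 11.60 in control. Control lay between the knockdowns and no arrays overlapped. PSMD2 fell by 0.33 ± 0.08 in the isoform knockdown (adjusted p = 0.0125, limma), and rose by 0.37 ± 0.08 in the WT knockdown (adjusted p = 0.00466, limma). Between the knockdowns the difference was -0.70 ± 0.08, or 0.614-fold (adjusted p = 0.000174, limma). The difference between the knockdowns was -0.58 under scaling to the median of all probes and passed there, as did the fall in the isoform knockdown at -0.56, whereas the rise in the WT knockdown was 0.02. The fall in the isoform knockdown lost its call without either control. PSMD1, the other large scaffold, was at 10.09, 9.89 and 10.06 in the isoform knockdown, 10.45, 10.63 and 10.59 in the WT knockdown and 10.23 and 10.34 in control. It showed the same order of groups without overlap, and only the comparison of the knockdowns passed in the main fit, at -0.54 ± 0.09 (adjusted p = 0.00202, limma). Against control PSMD1 fell just short, at -0.27 in the isoform (adjusted p = 0.0627, limma) and 0.27 in the WT knockdown (adjusted p = 0.0524, limma). Arrays left out apart, the isoform difference passed in 9 alternative settings and not in 2. The WT difference passed in 7 and not in 4.

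In the lid, PSMD3 had the widest differences from control of all members. This structural lid subunit was at 8.31, 8.40 and 8.48 in the isoform knockdown, 8.46, 8.59 and 8.45 in the WT knockdown and 7.58 and 7.30 in control. Every knockdown array lay above both controls, and the knockdowns overlapped. PSMD3 rose by 0.96 ± 0.11 in the isoform knockdown, or 1.95-fold (adjusted p = 0.00023, limma), and by 1.06 ± 0.11 in the WT knockdown, or 2.09-fold (adjusted p = 5.51e-05, limma). These calls held with each array left out in turn and under scaling to the median of all probes, at 0.73 in the isoform knockdown and 0.77 in the WT knockdown.

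PSMD8, known from yeast as the subunit that completes the lid, was at 9.59, 9.55 and 9.53 in the isoform knockdown, 10.35, 10.13 and 10.27 in the WT knockdown and 9.51 and 9.44 in control. The WT arrays stood well above the others. PSMD8 rose by 0.78 ± 0.10 in the WT knockdown, or 1.71-fold (adjusted p = 0.000145, limma), and differed by 0.08 ± 0.10 in the isoform knockdown (adjusted p = 0.523, limma). The knockdowns differed by -0.69 ± 0.09 (adjusted p = 0.000365, limma). PSMD12, another structural subunit of the lid, was at 10.59, 10.35 and 10.22 in the isoform knockdown, 10.76, 10.70 and 10.85 in the WT knockdown and 10.43 and 10.25 in control. Isoform and control arrays overlapped below the WT arrays, and PSMD12 rose by 0.43 ± 0.12 in the WT knockdown (adjusted p = 0.0166, limma), a call lost without control replicate 3. PSMD14, the lid's deubiquitinating enzyme, was lower than control in both, at -0.37 ± 0.09 in the isoform knockdown (adjusted p = 0.0131, limma) and -0.27 ± 0.09 in the WT knockdown (adjusted p = 0.0367, limma). The call of PSMD14 in the isoform knockdown was lost without control replicate 3, and that in the WT knockdown without either control, WT replicate 1 or 2 or isoform replicate 3. PSMD6 had a call at its brightest probe in the isoform knockdown, at -0.27, which was lost in 6 of the 8 fits that left out 1 array, while its other probe passed in both knockdowns, at -0.50 in the isoform knockdown and -0.51 in the WT knockdown.

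**Figure D2:**
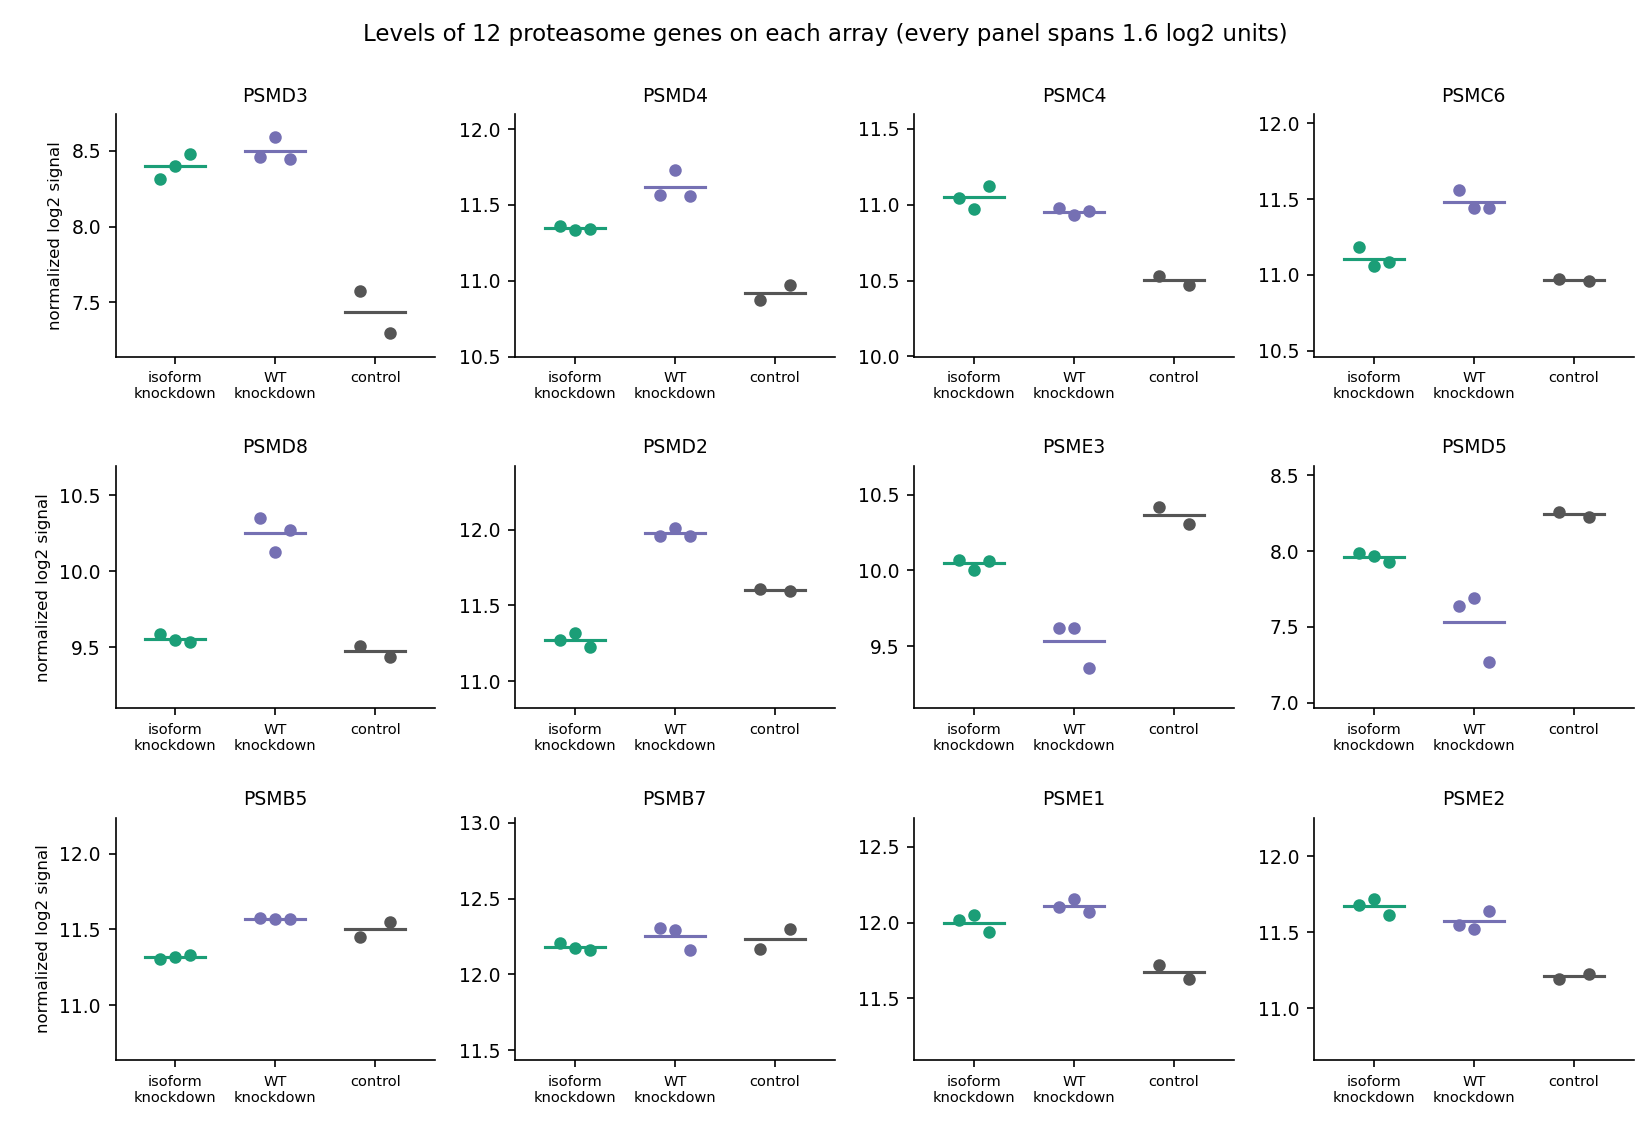
Normalized log2 signal of 12 proteasome genes on each array, in columns for the isoform knockdown (3 arrays), the WT knockdown (3 arrays) and control (2 arrays); bars are group means and every panel spans 1.6 log2 units. PSMD3 and PSMC4 are above control in both knockdowns, PSMD8 and PSMC6 stand highest in the WT knockdown, PSMD2 is lowest in the isoform knockdown, and PSME3 and PSMD5 are lowest in the WT knockdown.

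The members include 3 chaperones that hold the base during assembly and leave the finished particle. PSMD5 was at 7.99, 7.97 and 7.93 in the isoform knockdown, 7.64, 7.69 and 7.27 in the WT knockdown and 8.26 and 8.23 in control. The groups did not overlap, with the WT arrays lowest and WT replicate 3 below the other two. PSMD5 differed by -0.71 ± 0.13 in the WT knockdown, or 0.611-fold (adjusted p = 0.00133, limma), and was higher in the isoform than in the WT knockdown by 0.43 ± 0.11 (adjusted p = 0.0177, limma). Both calls held with each array left out in turn. PSMD9 was at 6.19, 6.05 and 6.17 in the isoform knockdown, 6.60, 6.43 and 6.44 in the WT knockdown and 6.47 and 6.61 in control. The isoform arrays lay below all others. PSMD9, whose probe was the dimmest of the members', differed by -0.40 ± 0.10 in the isoform knockdown against control (adjusted p = 0.0111, limma), a call lost without control replicate 3. PSMD10, also called gankyrin, rose by 0.32 ± 0.09 in the WT knockdown (adjusted p = 0.0142, limma) but differed by -0.048 under scaling to the median of all probes, and the call was lost without either control.

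The 4 activator genes split by complex. PSME1 and PSME2 encode the subunits of the cytoplasmic PA28 ring, which is induced by interferon-gamma and is linked to antigen processing. PSME1 was at 12.01, 12.05 and 11.94 in the isoform knockdown, 12.10, 12.15 and 12.07 in the WT knockdown and 11.72 and 11.63 in control. PSME2 was at 11.68, 11.72 and 11.61 in the isoform knockdown, 11.55, 11.52 and 11.64 in the WT knockdown and 11.19 and 11.22 in control. For both genes every knockdown array lay above the controls. PSME1 rose by 0.32 ± 0.09 in the isoform knockdown (adjusted p = 0.0167, limma), a call lost without control replicate 3, and by 0.43 ± 0.09 in the WT knockdown (adjusted p = 0.00276, limma). PSME2 rose by 0.46 ± 0.09 in the isoform knockdown (adjusted p = 0.00299, limma) and by 0.36 ± 0.09 in the WT knockdown (adjusted p = 0.00686, limma), but in the WT knockdown its sign turned, to -0.015, under scaling to the median of all probes.

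PSME3 encodes PA28-gamma, a separate nuclear ring that degrades some proteins without ubiquitin. It was at 10.07, 10.01 and 10.06 in the isoform knockdown, 9.62, 9.62 and 9.36 in the WT knockdown and 10.42 and 10.30 in control. The groups did not overlap, with control highest and the WT arrays lowest. PSME3 differed by -0.32 ± 0.11 in the isoform knockdown (adjusted p = 0.0402, limma) and by -0.83 ± 0.11 in the WT knockdown, or 0.562-fold (adjusted p = 0.000186, limma). It was higher in the isoform than in the WT knockdown by 0.51 ± 0.10 (adjusted p = 0.00308, limma). Its other kept probe gave -0.32 in the isoform knockdown, -0.80 in the WT knockdown and 0.48 between them, and passed in each. The call in the isoform knockdown against control was lost without either control or any isoform replicate, while the other two calls held with each array left out. PSME4, the PA200 activator of the nucleus, was at 9.98, 9.93 and 9.88 in the isoform knockdown, 10.20, 10.33 and 10.10 in the WT knockdown and 10.06 and 10.09 in control. The isoform arrays lay below control and the WT arrays above it, and the comparison of the knockdowns passed at -0.28 ± 0.09 (adjusted p = 0.0334, limma), which was lost without control replicate 3 or any knockdown array other than WT replicate 3.

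**Figure D3:**
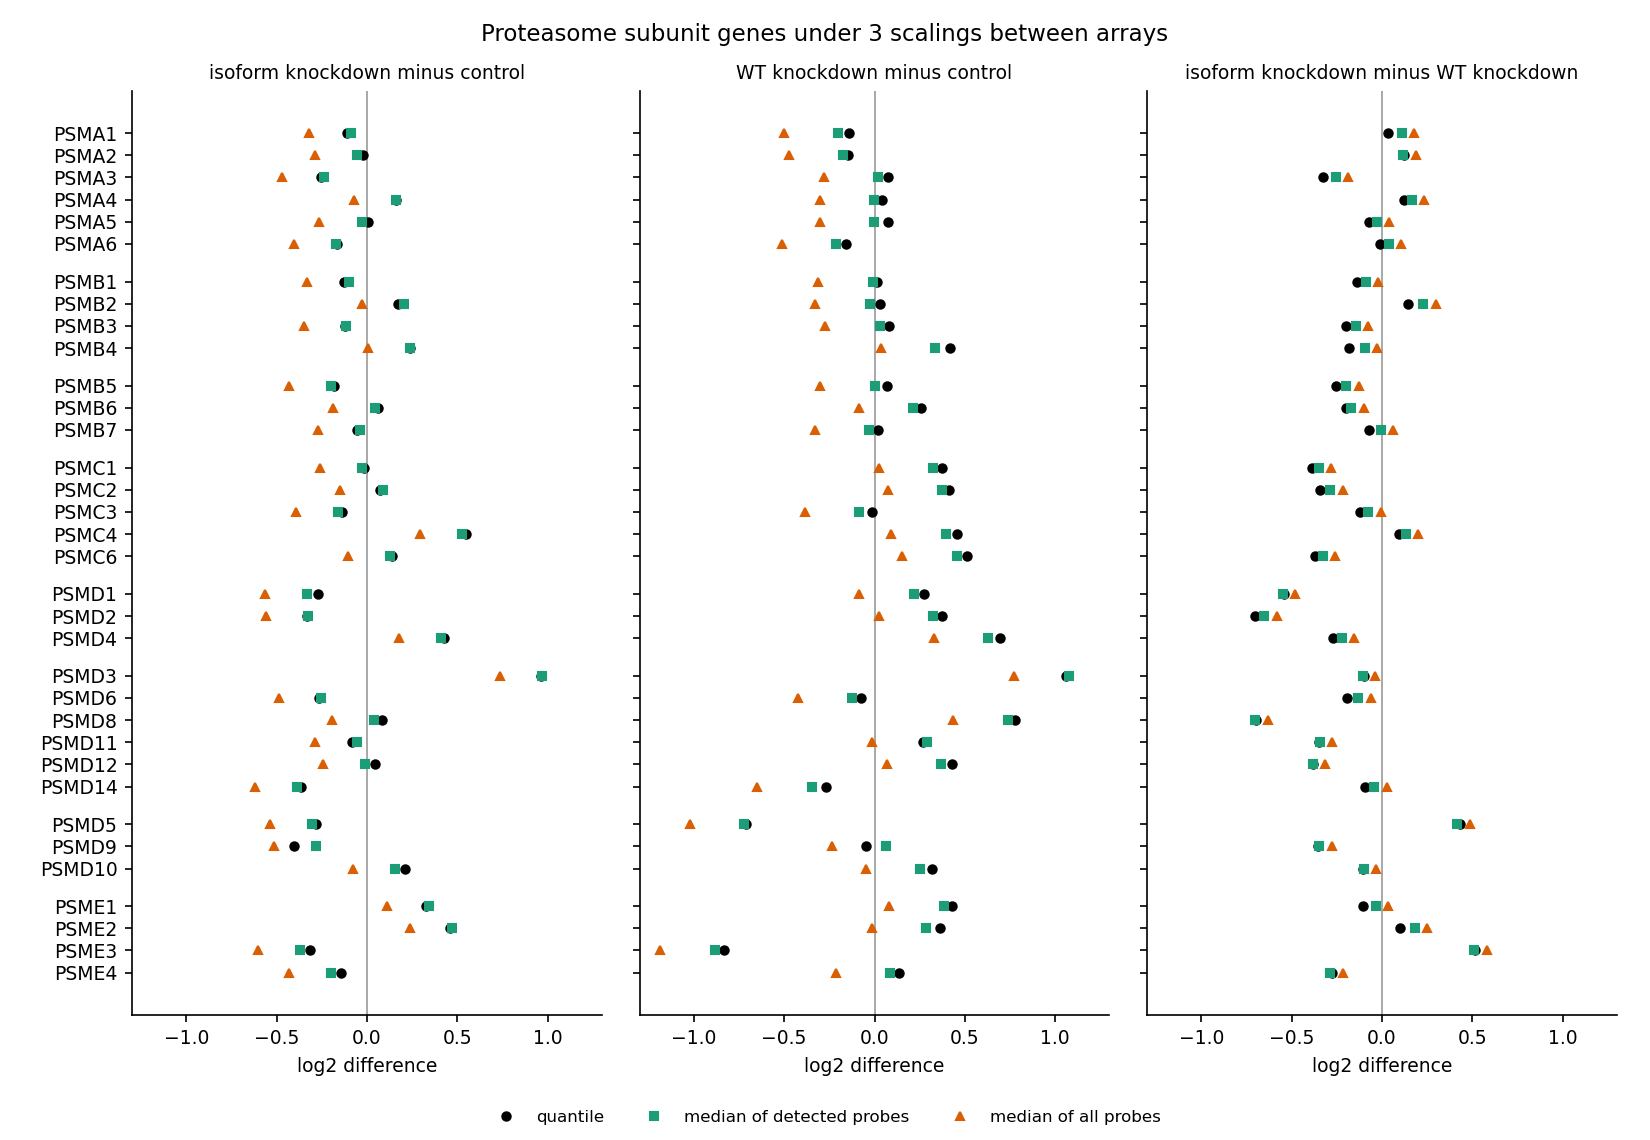
Log2 differences of the 34 proteasome genes in the 3 comparisons (panels as before) under quantile normalization, scaling to the median of the probes detected on every array and scaling to the median of all probes. The first and second settings lie close together, with 35 of the 41 calls kept. The third lies to the left of both in the comparisons with control. Of the genes called in the WT knockdown, PSMB6, PSMD10 and PSME2 change sign there, and genes without a call also change sign.

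Promoter windows of 250 bases before to 50 after the start site were held for 30 of the 34 members in the RefSeq table of GRCh38.p14. Windows are printed below for PSMD3 and PSMC4, genes of the 19S particle that rose in both knockdowns, and for the activators PSME1, PSME2 and PSME3, which moved in opposite directions. Capitals mark the letters TGACNNNGC (the core of the antioxidant response element, which NFE2L1 and NFE2L2 bind) in the first 4 windows, CCAAT (the NF-Y box) in PSMD3 and PSME3, and GAAA repeated after a gap of 2 bases (the core of the interferon response element) in PSME1 and PSME2, each on either strand. Sequences run 5′ to 3′ on the strand of the gene, for PSMD3 at chr17:39980557-39980856 (plus strand), PSMC4 at chr19:39970915-39971214 (plus), PSME1 at chr14:24135944-24136243 (plus), PSME2 at chr14:24146561-24146860 (minus) and PSME3 at chr17:42833147-42833446 (plus).
PSMD3: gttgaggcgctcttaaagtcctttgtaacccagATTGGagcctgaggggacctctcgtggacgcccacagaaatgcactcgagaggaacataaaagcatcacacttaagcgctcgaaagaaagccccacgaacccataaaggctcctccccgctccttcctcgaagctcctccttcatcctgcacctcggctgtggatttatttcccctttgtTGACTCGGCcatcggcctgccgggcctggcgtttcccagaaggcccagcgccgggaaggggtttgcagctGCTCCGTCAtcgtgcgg
PSMC4: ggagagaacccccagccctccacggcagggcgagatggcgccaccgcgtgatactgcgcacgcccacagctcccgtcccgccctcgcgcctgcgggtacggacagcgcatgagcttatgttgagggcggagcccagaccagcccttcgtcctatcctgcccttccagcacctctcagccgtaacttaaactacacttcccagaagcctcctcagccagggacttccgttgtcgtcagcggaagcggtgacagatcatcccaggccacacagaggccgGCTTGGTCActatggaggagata
PSME1: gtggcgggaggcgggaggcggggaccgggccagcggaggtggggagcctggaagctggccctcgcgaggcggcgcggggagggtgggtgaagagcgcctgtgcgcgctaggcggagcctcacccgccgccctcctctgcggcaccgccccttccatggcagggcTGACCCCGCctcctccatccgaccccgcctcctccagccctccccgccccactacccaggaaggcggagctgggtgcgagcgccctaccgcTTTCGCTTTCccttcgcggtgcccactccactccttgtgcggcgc
PSME2: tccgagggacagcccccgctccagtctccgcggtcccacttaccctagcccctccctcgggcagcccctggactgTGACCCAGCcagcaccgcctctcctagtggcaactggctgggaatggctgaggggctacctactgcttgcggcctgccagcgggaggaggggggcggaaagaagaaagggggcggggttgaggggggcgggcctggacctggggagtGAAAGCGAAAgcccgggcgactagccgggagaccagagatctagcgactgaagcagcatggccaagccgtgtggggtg
PSME3: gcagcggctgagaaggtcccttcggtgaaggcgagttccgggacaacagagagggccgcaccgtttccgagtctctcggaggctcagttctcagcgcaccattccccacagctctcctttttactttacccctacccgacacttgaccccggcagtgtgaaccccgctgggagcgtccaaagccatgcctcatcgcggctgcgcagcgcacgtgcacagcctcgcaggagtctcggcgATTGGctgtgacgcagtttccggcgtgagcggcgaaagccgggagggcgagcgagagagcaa
TGACNNNGC stood in 11 of the 30 member windows, or 36.7%, and in 16.1% of the 27305 genes with a window. The shares of genes given here are over all genes with a window, measured on these arrays or not. No share was taken over the measured genes alone, so the references are unlike the members, which were all detected. It began at -37 and 34 in PSMD3, 28 in PSMC4, -86 in PSME1 and -175 in PSME2, counted from the start site. In the WT knockdown against control, 5 of the 11 members with these letters were higher and 1 lower, beside 7 higher and 2 lower of the 19 without. For the isoform knockdown against control the counts were 4 higher and 1 lower with the letters, and 0 higher and 4 lower without. PSMD4, called higher in both knockdowns, had no window and is in neither count. A link between the letters and the calls was not tested. The GAAA repeat stood in 4 of the 30 (PSMA4, PSMB4, PSME1 and PSME2) and in 4.38% of genes, and CCAAT in 15 and in 39.7% of genes. In the WT knockdown 3 of the 4 with the GAAA repeat were higher and 0 lower, beside 9 higher and 3 lower of the 26 without. For CCAAT 4 were higher and 2 lower of the 15 with it, and 8 higher and 1 lower of the 15 without. A link of these letters to the calls was not tested either. A match shows only that the letters are there. Other letters searched were GGGCGG, in 63.3% of members and 48.3% of genes, CCGGAAG, in 33.3% and 12.2%, the YY1 site, in 1 member, and TGACGTCA, GGTGGCAAA and the heat shock element, each in 0 member windows, which says only that those letters are not in these windows. TGACGTCA shares its opening letters with TGACNNNGC, but no stretch can match both from the same base, and no capitals of the printed windows overlap each other.

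Genes that belong to the proteasome's surroundings were taken from lists made for this description. The inducible subunit PSMB8, which replaces PSMB5 in the immunoproteasome, was at 9.87 ± 0.08 in the isoform knockdown, 9.91 ± 0.09 in the WT knockdown and 9.00 ± 0.04 in control (SD, n = 3, 3 and 2). It rose by 0.87 in the isoform knockdown, where PSMB5 differed by -0.18, and by 0.91 in the WT knockdown, where PSMB5 differed by 0.07. PSMB9, which replaces PSMB6, rose by 0.36 in the isoform knockdown and differed by 0.22 in the WT knockdown, which did not pass. PSMB10, which replaces PSMB7, differed by -0.03 in the isoform knockdown, which did not pass, and rose by 0.36 in the WT knockdown. PSMB11 and PSMA8 were detected on no array.

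Of the 6 assembly factors of the core and base, 1 was higher and 2 lower in the isoform knockdown against control. In the WT knockdown against control 1 was higher and 4 lower. The lower shares of 33.3% and 66.7% stood beside 24.1% and 29.7% of all genes. The higher share of 16.7% in each stood beside 19.9% and 26.6%. The median was -0.14 in the isoform knockdown and -0.58 in the WT knockdown. PSMG1 and PSMG2 form the pair that starts the alpha ring. PSMG1 fell in both, at -0.63 in the isoform and -0.58 in the WT knockdown, and PSMG2 differed by -0.09 in the isoform knockdown, which did not pass, and by -0.66 in the WT knockdown, which did. PSMG4 passed in both, at -0.42 in the isoform and -0.62 in the WT knockdown. PAAF1 differed by -0.18 in the isoform knockdown, which did not pass, and by -0.58 in the WT knockdown, which did. PSMG3 rose by 0.59 in the isoform and 0.53 in the WT knockdown. POMP, which helps the beta ring to form, differed by -0.10 in the isoform and -0.07 in the WT knockdown and passed in neither.

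Of the 6 measured genes of the NFE2L1 pathway, NFE2L1 itself, the factor that raises subunit genes, was at 9.45 in the isoform knockdown, 9.82 in the WT knockdown and 8.98 in control. It rose by 0.47 ± 0.10 in the isoform knockdown (adjusted p = 0.00634, limma) and by 0.83 ± 0.10 in the WT knockdown (adjusted p = 0.000154, limma), and was lower in the isoform than in the WT knockdown at -0.36 (adjusted p = 0.0146, limma). NGLY1, which removes its glycans, fell in the isoform knockdown at -0.32 and differed by -0.06 in the WT knockdown, which did not pass. SYVN1, a ubiquitin ligase that acts on it, was at -0.38 in the isoform knockdown (adjusted p = 0.0521, limma), just short of the threshold, and at -0.37 in the WT knockdown (adjusted p = 0.0468, limma), just past it. NFE2L2, VCP and DDI2 passed in neither. Another list held 15 measured factors that bind the proteasome or bring substrates to it, with the deubiquitinases USP14 and UCHL5 and the small lid subunit SEM1. Of these 15, 2 were higher and 5 lower in the isoform knockdown, and 3 were higher and 5 lower in the WT knockdown. Called genes thus made 46.7% in the isoform and 53.3% in the WT knockdown, near the 44.0% and 56.3% of all genes. Those given with values below were picked by smallest adjusted p in either comparison with control. UBE3A, a ligase, was at -0.45 in the isoform knockdown and -1.16 in the WT knockdown, ZFAND2A, a stress-induced partner of the 19S particle, rose by 0.71 in the isoform and 0.99 in the WT knockdown, and RAD23B, a shuttle, was at -0.65 in the isoform and -0.75 in the WT knockdown. All of these passed. ADRM1, the other ubiquitin receptor of the base, differed by 0.17 in the isoform knockdown, which did not pass, and rose by 0.62 in the WT knockdown.

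For scale, 3 other complexes were counted the same way. The CCT chaperonin, 8 genes, gave 3 higher and 2 lower in the isoform knockdown against control, 5 higher and 0 lower in the WT knockdown, and 1 higher and 4 lower between the knockdowns. The COP9 signalosome, a relative of the proteasome lid with 9 genes, gave 0 higher and 2 lower in the isoform knockdown, 0 higher and 4 lower in the WT knockdown, and 2 higher and 2 lower between the knockdowns. The eIF3 initiation factor, also related to the lid, had 3 higher and 3 lower in each comparison with control among 13 genes, and 3 higher and 5 lower between the knockdowns. The 19S particle's 9 of 14 higher genes in the WT knockdown thus stood beside 5 of 8 for CCT, and no difference between the complexes was tested.

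**Figure D4:**
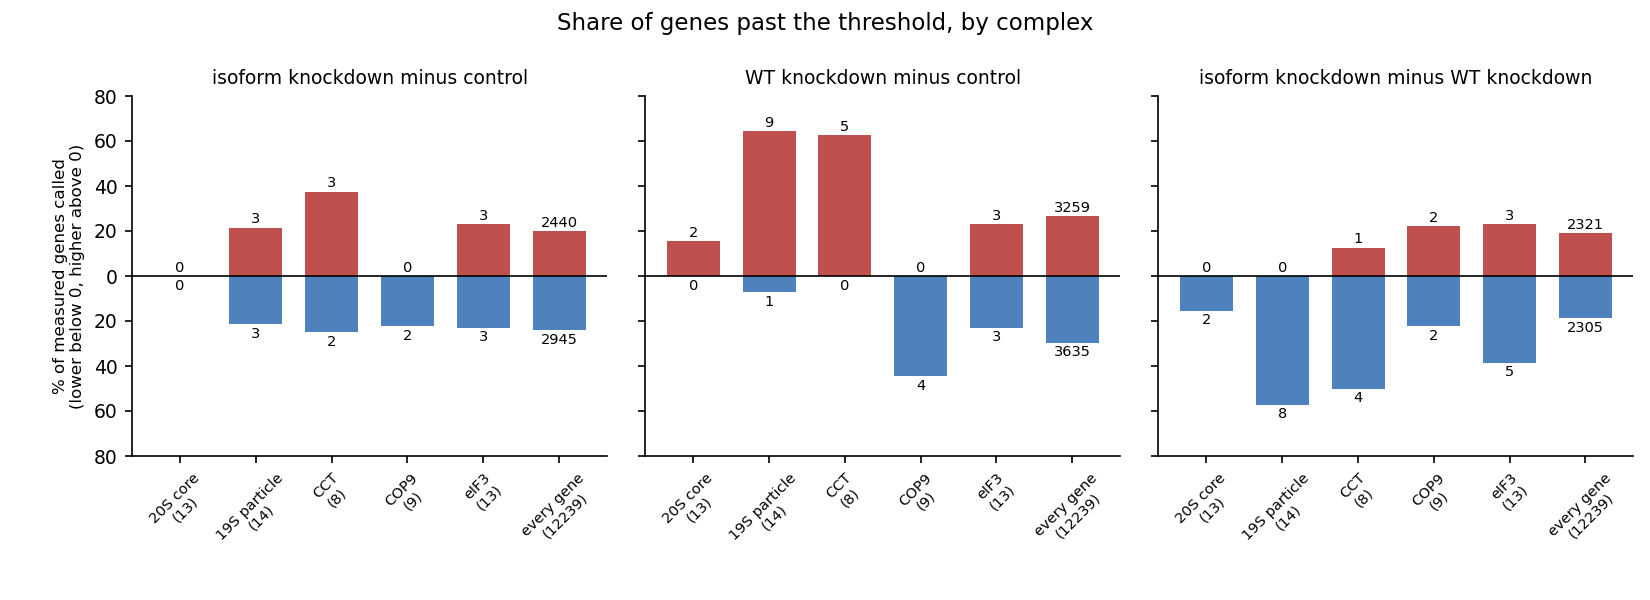
Percent of measured genes called higher (above 0) or lower (below 0) in the isoform knockdown against control, the WT knockdown against control and the isoform against the WT knockdown, for the 20S core, the 19S particle, the CCT, COP9 and eIF3 complexes and all genes; numbers on the bars are gene counts, after quantile normalization. The 19S particle has 9 of 14 genes higher in the WT knockdown and 8 of 14 lower in the isoform against the WT knockdown, and the 20S core has 2 of 13 in each. Both of these comparisons use the same WT arrays, so their counts are not independent.

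Across the 3 comparisons, 12 members had 15 further kept probes. The call at the further probe matched that of the brightest at 13 of 15 in the isoform knockdown against control, 10 of 15 in the WT knockdown against control and 10 of 15 between the knockdowns, and 0 were called in opposite directions. With each array left out in turn, 3 of 5 higher and 0 of 5 lower calls of the isoform knockdown against control stayed past the threshold throughout, which were PSMC4, PSMD3 and PSME2. In the WT knockdown against control, 9 of 14 higher and 2 of 3 lower calls did, among them PSMC2, PSMC6, PSMD2, PSMD4, PSMD8 and PSME1. Between the knockdowns, 6 of 12 lower calls (PSMC1, PSMC2, PSMC6, PSMD1, PSMD2 and PSMD8) and both higher calls did.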

How the data were processed

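Per the labels' protocols, total RNA was amplified to biotin-labelled cRNA and hybridised to Illumina arrays. The authors deposited a table of mean bead intensity with a detection p-value, per the file headers, covering 47231 probes and 9 arrays. They also deposited log2 values, whose normalization is not stated. Submitters' processing notes name R 3.1.0. Scanner software and genome build: not given in the sources used here.

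Control replicate 2 was left out because it is the average of control replicates 1 and 3 at all 47231 probes (tolerance 1e-06 in signal). Signals of the 6 knockdown arrays were not in the order of the probe IDs beside them: their rank correlation with the authors' log2 values was -0.00219 to 0.000506. All 47231 knockdown signals were returned to a probe by their ranks in that table, on which the identity of every knockdown value rests.

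Intensities were corrected by normexp with detection p-values (offset 16), quantile normalized and log2 transformed in limma 3.58.1 under R 4.3.3. A probe was kept if detected at p under 0.05 in 3 or more of the 9 deposited columns, which left 22467. Symbols are those of the platform annotation (30113 probes with 1 symbol, 8 with several, 17110 with none). The members had 53 probes, of which 49 were kept; cross-hybridisation to related genes or pseudogenes was not checked. Means of the 3 groups on 8 arrays were fitted with limma's lmFit and eBayes, on 5 residual degrees of freedom plus 4.33 from the prior, and p-values were adjusted by Benjamini-Hochberg over all kept probes with a threshold of 0.05. The fit was tested on simulated data. The median SD across probes was 0.117 in the isoform knockdown, 0.124 in the WT knockdown and 0.0851 in control.

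Values on every array are given for PSMB5 to PSMB7, PSME1 to PSME4 and members with a call of at least 0.4 in size. The members, the related lists and the rules were chosen with earlier results of these data known. Alternatives were another background correction or offset, 2 other scalings, other filters, the authors' log2 values, another variance model, control replicate 2 included, a replicate block, the mean of all probes and each array left out. A further promoter motif is not reported here.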

Additional observations from a re-analysis of the deposited data

How the results depend on the processing

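Scaling to the median of all probes changed 5 of the 6 counts by over 1.5 times. In the isoform knockdown against control it gave 1 higher and 8 lower members, in the WT knockdown against control 2 higher and 6 lower, and between the knockdowns 3 lower. Of the members called in the WT knockdown, it turned PSME2 to -0.015, PSMB6 to -0.086 and PSMD10 to -0.048. Members without a call changed sign too, and the cause was not tested. Scaling to the median of the probes detected on every array, chosen after seeing the data, kept 35 of 41 calls. The 5 lower members of the isoform knockdown against control were 8 with no background correction, with offset 50 and with the authors' log2 values, and 9 with the other variance model and with control replicate 2 included. The 3 lower members of the WT knockdown against control were 5 with the mean of all probes. Leaving out 1 array at a time gave 4 to 5 higher and 0 to 6 lower in the isoform knockdown against control, 10 to 15 higher and 2 to 3 lower in the WT knockdown against control, and 2 higher and 7 to 12 lower between the knockdowns.

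Same-numbered arrays did not deviate together (correlations from -0.0284 to 0.0578), and the main fit used no pairing by number. With so few arrays this cannot settle whether the numbers pair the samples. With a replicate block the lower members of the isoform knockdown against control were 3. Apart from the arrays left out, the results of single members, most of them with no call, kept their side of the threshold in 1007 cases. They lost a call in 40, gained one in 72 and, with a call in either setting, changed sign in 3. Changes of sign without any call were counted among the 1007. Small differences near the threshold are limited by 2 control arrays, and dim probes by detection at 43.0% to 46.1% of all probes.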
